A study of Mus musculus with 10 samples.

Results

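The genes described here are 10 transcripts that mark homeostatic astrocytes: Slc1a2, Slc1a3, Glul, Aldoc, Aldh1l1, Gja1, Aqp4, Mlc1, Ntsr2 and Sox9. They were chosen by name, as the rows SLC1A2, SLC1A3, GLUL, ALDOC, ALDH1L1, GJA1, AQP4, MLC1, NTSR2 and SOX9 of a table of 24982 gene rows. All 10 were found there and passed the low-count filter that left 14867 genes, with at least 1026 counts in every library. RNA was sequenced from the dentate gyrus, a hippocampal region packed with granule neurons, which was micro-dissected from 5 male mice with a global knockout of Fndc5 (KO) and from 5 male wild-type mice (WT). All 10 mice had a C57BL/6 background and were 10 weeks old, and each gave 1 library of 26226375 to 43802079 counts. Fndc5 encodes the membrane protein from which the secreted myokine irisin is cleaved, and the comparison asks which transcripts of this region differ without an intact Fndc5. The sources used here do not give the deleted part of the gene or say whether the wild types were littermates.

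Astrocytes clear glutamate and potassium from the space around synapses, turn glutamate into glutamine, and join into networks through gap junctions. Their endfeet on vessels carry water channels. In the dentate gyrus several of the same transcripts are also made by the radial glia-like stem cells that give rise to new granule neurons. In bulk tissue, fewer cells of a type and less RNA per cell cannot be told apart.

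No astrocyte gene passed the threshold of 0.05 on the edgeR p-value adjusted over all genes, 0 of 10, against 0.00673% of all genes tested, which is Fndc5 alone. Levels are given as CPM, the counts of a gene scaled to a common library total after TMM normalization, and differences as log2 fold changes of KO over WT. Of the 10 genes, 6 had values above 0, against 50.7% of all genes tested, and their median was 0.01 on the log2 scale, against 0.0016 for all genes. Mlc1 and Ntsr2 had the smallest p-values of the 10. They were the 2 genes at an unadjusted p under 0.05, and both had values above 0. Among all genes, 6.29% were at such a p, 2.54% with a value above 0 and 3.75% with a value below 0.

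The labels were checked on Fndc5, which was at 51.3 ± 4.27 CPM in KO and 75.3 ± 4.598 CPM in WT (mean ± SD, n = 5 each), with an edgeR adjusted p of 0.000495 and no overlap between the genotypes. One library stood apart for the astrocyte genes, that of KO mouse 3. It had the lowest value of all 10 libraries for 6 of the 10 genes, and the lowest KO value for 8 of them. Of all genes tested, 11.6% had their lowest value in that library. That share was higher in WT mouse 2 (15.6%) and WT mouse 1 (13.1%), and 7.64% to 9.75% in the other libraries. The fold changes of the 10 genes and the counts of each list are given with and without KO mouse 3.

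**Figure D1:**
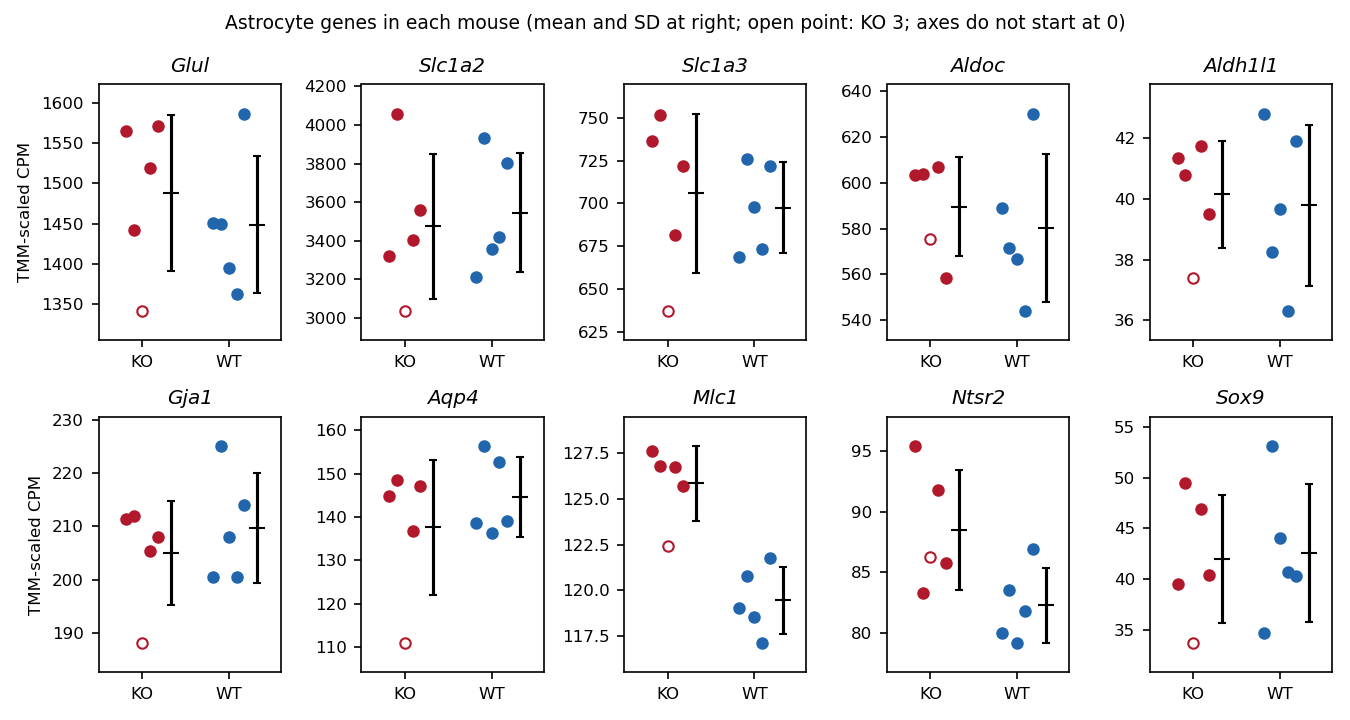
TMM-scaled CPM of the 10 astrocyte genes, with 1 point for each mouse, KO left and WT right, and the mean ± SD beside each group. The open point is KO mouse 3, which lies lowest among the KO mice in 8 panels. The Mlc1 panel is the one in which the genotypes do not overlap.

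Slc1a2 and Slc1a3 encode the glutamate transporters that take up most of the transmitter released at forebrain synapses. Slc1a2 lies on chromosome 2 from 102658659 to 102790784 on the plus strand of GRCm38. It was at 3319, 4057, 3036, 3401 and 3560 CPM in KO mice 1 to 5, against 3213, 3933, 3356, 3418 and 3802 CPM in WT mice 1 to 5. Mouse 2 was highest in each genotype, and the groups overlapped. The log2 fold change was -0.03 (SE 0.067, edgeR adjusted p 0.953), and 0.02 (SE 0.065, adjusted p 0.993) without KO mouse 3. It was also above 0 without WT mouse 2, at 0.01 (SE 0.067), so its sign was not settled. Slc1a3 lies on chromosome 15 from 8634124 to 8710764 on the minus strand. It was at 736.3, 751.8, 637.6, 681.7 and 722.1 CPM in KO, against 668.9, 725.7, 698.2, 673.3 and 721.6 CPM in WT. KO mice 1 and 2 were the highest and KO mouse 3 the lowest of all. Its log2 fold change was 0.02 (SE 0.044, adjusted p 0.957), and 0.05 (SE 0.039, adjusted p 0.984) without KO mouse 3.

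Glul encodes glutamine synthetase, which turns the glutamate taken up into glutamine. Its gene spans 153899944 to 153909723 on chromosome 1. Levels ran between 1342 and 1572 CPM in KO, with the lowest again in mouse 3, and between 1362 and 1586 CPM in WT. The log2 fold change was 0.04 (SE 0.048, adjusted p 0.901), and 0.07 (SE 0.044, adjusted p 0.984) without KO mouse 3, and the groups overlapped in both. A list of glutamate and glutamine partners, which includes receptors and other transporters, gave no call. Of 14 tested, 6 had values above 0 and 8 below, with a median of -0.0151. The counts were also 6 and 8 without KO mouse 3, with a median of -0.008. The glutamate receptor gene Grm5 had a log2 fold change of -0.11 (SE 0.061) and the amino acid transporter gene Slc38a1 at -0.05 (SE 0.037). Slc38a3, the transporter through which astrocytes release glutamine, was at 44.3 CPM in KO and 44.1 CPM in WT (0.01, SE 0.048, and 0.04 without KO mouse 3). Of the paralogs of Slc1a2 and Slc1a3, 4 were tested, with 1 value above 0 and a median of -0.0169 (0 above 0 and -0.0338 without KO mouse 3), and Slc1a1, the transporter of neurons, was at 217.1 CPM in KO and 217.3 CPM in WT. Slc1a4 was at -0.04 (SE 0.053) and Slc1a6 at -0.03 (SE 0.095), while Slc1a7 had at most 2 counts in a library and was not tested.

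Aldoc encodes the aldolase isoform of brain glycolysis and lies on chromosome 11 from 78322968 to 78327781. It ran between 558.5 and 606.8 CPM in KO and between 544.1 and 630.1 CPM in WT (log2 fold change 0.02, SE 0.040, edgeR adjusted p 0.938, and 0.03 without KO mouse 3). Here mouse 5, not mouse 3, was the lowest KO mouse. Aldh1l1 encodes the folate enzyme that oxidises formyl-tetrahydrofolate and lies on chromosome 6 from 90486427 to 90600203. It ran between 37.4 and 41.7 CPM in KO and between 36.3 and 42.8 CPM in WT (0.01, SE 0.051, adjusted p 0.978, and 0.04 without KO mouse 3). Aldoa, the aldolase of most tissues, was at 1439 CPM in KO and 1458 CPM in WT (-0.02, SE 0.037).

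Of 13 tested genes of glycolysis, glycogen and lactate, 4 had values above 0 (median -0.0176), and 5 without KO mouse 3 (median -0.0159), with the lactate transporter gene Slc16a1 at -0.10 (SE 0.064), Pgk1 at -0.05 (SE 0.043) and Ldha at -0.03 (SE 0.032). A list of 10 genes held folate one-carbon genes and Aldh1a1, an aldehyde dehydrogenase gene outside that pathway. Of the 10, 8 had values above 0, against 50.7% of all genes, with a median of 0.06. Without KO mouse 3 it was also 8, with a median of 0.05. None of them passed. The serine hydroxymethyltransferase gene Shmt2 was at 24.3 CPM in KO and 22.4 CPM in WT (log2 fold change 0.12, SE 0.058, edgeR adjusted p 0.789). Aldh1l2, the mitochondrial counterpart of Aldh1l1, was at 6.04 CPM in KO and 5.81 CPM in WT (0.07, SE 0.14, and 0.04 without KO mouse 3).

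Gja1, Aqp4 and Mlc1 encode membrane proteins of astrocyte contacts and endfeet. Gja1, the main connexin of astrocyte gap junctions, lies on chromosome 10 from 56377330 to 56402513. It was at 211.5, 211.9, 188.1, 205.4 and 208.1 CPM in KO mice 1 to 5, against 200.5, 225.1, 208.1, 200.5 and 214.1 CPM in WT mice 1 to 5. KO mouse 3 was below every other mouse, and the remaining KO mice lay inside the WT range. The log2 fold change was -0.03 (SE 0.042, adjusted p 0.908), and -0.0027 (SE 0.040, adjusted p 0.997) without KO mouse 3. Of 8 genes of other gap junction and junction-associated proteins, 7 had values below 0 with all libraries (median -0.10) and 5 without KO mouse 3 (median -0.07), and none passed. Gjb6, another astrocyte connexin, was the exception with all libraries, at 39.3 CPM in KO and 39.1 CPM in WT (0.01, SE 0.069, and 0.03 without KO mouse 3). Panx1 was at -0.14 (SE 0.070), Gjd2, the connexin of neurons, at -0.22 (SE 0.13) and Gjb2 at -0.16 (SE 0.13).

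Aqp4, the water channel of perivascular endfeet, lies on chromosome 18 from 15389496 to 15410982. It was at 144.9, 148.5, 111.0, 136.9 and 147.1 CPM in KO, against 138.6, 156.3, 136.4, 152.7 and 139.1 CPM in WT. KO mouse 3 was far below the rest, and the other 4 KO mice lay inside the WT range. Aqp4 had the lowest log2 fold change of the 10 genes, -0.07 (SE 0.067, edgeR adjusted p 0.874). Without KO mouse 3 it was -0.0024 (SE 0.047, adjusted p 0.997), with a mean of 144.3 ± 5.17 CPM in 4 KO mice and 144.6 ± 9.18 CPM in 5 WT mice. The 95% interval then ran from -0.10 to 0.10.

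Mlc1 encodes a membrane protein of astrocyte junctions that takes part in volume regulation, and its human counterpart is mutated in megalencephalic leukoencephalopathy with subcortical cysts. The gene lies on chromosome 15 from 88955884 to 88979007. It was at 127.6, 126.8, 122.4, 126.8 and 125.7 CPM in KO, against 119.0, 120.8, 118.5, 117.1 and 121.7 CPM in WT. Every KO mouse was above every WT mouse, with KO mouse 3 closest to the WT range. Groups with no overlap and KO above were found for 0.457% of all genes tested, and among the 10 astrocyte genes for Mlc1 alone. Groups with KO below were found for 0.437% of all genes and for none of the 10. The difference was small, at 5.37% (95% interval 0.651% to 10.3%), or 0.08 on the log2 scale (SE 0.031, unadjusted edgeR p 0.0277, adjusted p 0.788). Leaving out KO mouse 3 gave 0.09 (SE 0.033, adjusted p 0.984), again with no overlap, as for 0.733% of all genes with KO above. Mlc1 was also the steadiest of the 10 genes, with a coefficient of variation of 1.62% in KO and 1.54% in WT.

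Of 14 genes tested for partners of the endfoot and for water and potassium handling, 7 had values above 0 (median 0.0056), and 8 without KO mouse 3 (median 0.0096). Hepacam, the adhesion protein that binds the Mlc1 protein, was at 89.0 CPM in KO and 86.5 CPM in WT (0.04, SE 0.040). Kcnj10, the main inward rectifier potassium channel of astrocytes, was at 185.8 CPM in KO and 194.4 CPM in WT (-0.07, SE 0.047, and -0.03 without KO mouse 3). Its channel partner Kcnj16 was at 15.5, 17.1, 13.7, 13.3 and 13.2 CPM in KO, against 17.4, 18.6, 16.8, 16.1 and 16.4 CPM in WT. KO mouse 2 lay within the WT range and the other 4 KO mice below it. Its log2 fold change was -0.23 (SE 0.075, adjusted p 0.788), and Slc12a2, a sodium, potassium and chloride cotransporter, was at -0.07 (SE 0.043).

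Ntsr2 encodes the low-affinity neurotensin receptor, which in rodent brain is found mainly on astrocytes. It lies on chromosome 12 from 16653382 to 16660227. It was at 95.4, 83.2, 86.3, 91.8 and 85.8 CPM in KO, against 79.99, 83.5, 79.1, 81.8 and 86.9 CPM in WT. KO mice 1 and 4 were above every WT mouse, and the other 3 overlapped the WT range. Ntsr2 had the highest log2 fold change of the 10, 0.11 (SE 0.043, 95% interval 0.01 to 0.20, unadjusted edgeR p 0.0257, adjusted p 0.788). It was 0.12 (SE 0.047, adjusted p 0.984) without KO mouse 3. In the neurotensin system, all 3 genes tested had values below 0, with and without KO mouse 3 (medians -0.0589 and -0.0432). The receptor gene Ntsr1, at 1.01 CPM in KO and 1.16 CPM in WT, was at -0.18 (SE 0.22), and at -0.36 (SE 0.22) without KO mouse 3, the highest KO mouse for this gene. The sorting receptor genes Sorl1 and Sort1 were at -0.06 (SE 0.055) and -0.03 (SE 0.036), and at -0.04 and -0.01 without it. Nts, the gene of the ligand, had at most 5 counts in a library and was not tested.

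Sox9 encodes the transcription factor that directs cells to the glial fate and stays on in astrocytes and neural stem cells. It lies on chromosome 11 from 112782224 to 112787760. It was at 39.5, 49.5, 33.7, 46.9 and 40.4 CPM in KO, against 34.7, 53.1, 44.1, 40.7 and 40.3 CPM in WT. It varied most between mice, with a coefficient of variation of 14.9% in KO and 15.9% in WT. Its log2 fold change was -0.02 (SE 0.10, edgeR adjusted p 0.982) with a 95% interval of -0.24 to 0.20, the widest of the 10, and 0.05 (SE 0.099, adjusted p 0.989) without KO mouse 3. Of 12 glial transcription factor genes, 8 had values above 0 (median 0.0272), also 8 without KO mouse 3 (median 0.0169). Sox8, a relative of Sox9, was at 38.1 CPM in KO and 34.0 CPM in WT (0.16, SE 0.054, adjusted p 0.788). The Notch target gene Hes5 was at 0.29 (SE 0.19) and Zbtb20 at 0.09 (SE 0.058).

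**Figure D2:**
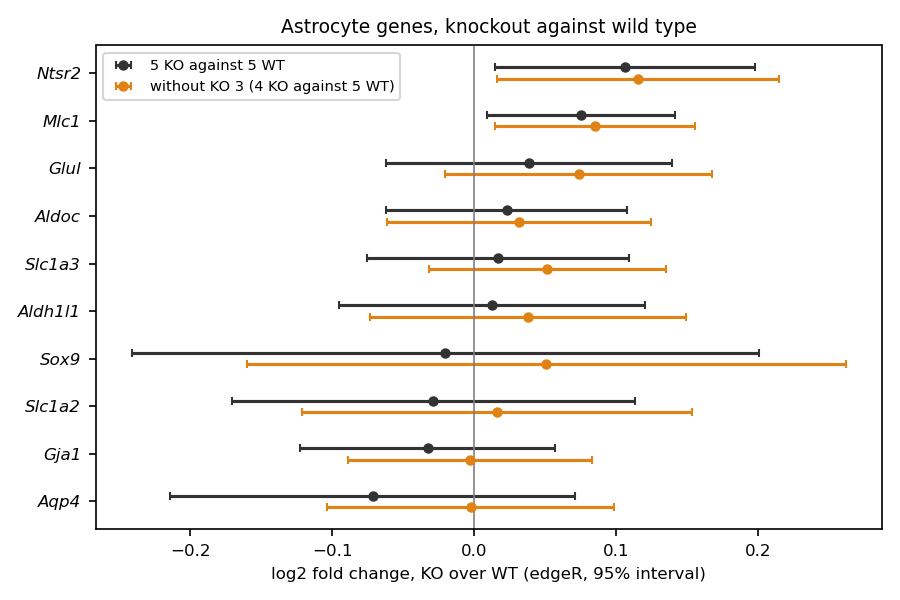
Log2 fold change of KO over WT for the 10 astrocyte genes, with edgeR 95% intervals, for all libraries (dark) and without KO mouse 3 (orange). Aqp4, Gja1, Slc1a2 and Sox9, the genes below 0 with all libraries, move toward or past 0 without that library. Mlc1 and Ntsr2 lie above 0 in both fits.

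The intervals bound how large a difference the data allow. With all libraries, the widest interval, that of Sox9, ran from 15.4% lower to 15% higher in KO, and that of Slc1a2 from 11.2% lower to 8.17% higher. With KO mouse 3 left out, 8 of the 10 genes had values above 0, against 50.8% of all genes, and the median was 0.04. The 2 below 0 were Aqp4 and Gja1, both within 0.0027 of 0. KO mouse 3 was the lowest KO mouse for 8 of the 10 genes, so leaving it out raises their KO means by construction. The share over all genes takes no account of this. No gene of the 10 passed in that fit either, where 0.0067% of 14933 genes did. Mlc1 and Ntsr2 were again the genes at an unadjusted p under 0.05, against 1.89% of all genes higher in KO and 2.45% lower. The unadjusted edgeR p was over 0.05 for both genes without KO mouse 1 (Ntsr2 0.0892, Mlc1 0.0585) and without KO mouse 4 (0.0689 and 0.0579). The same held without WT mouse 3 (0.0651 and 0.0539). That p was also over 0.05 for Ntsr2 without WT mouse 1 (0.052), and for Mlc1 without WT mouse 4 (0.063) and with GC and length correction (0.055). For Mlc1 the log2 fold change without KO mouse 4 was 0.0715 (SE 0.035), against 0.0754 (SE 0.031) with all libraries. The SE thus also rose with fewer mice. For Ntsr2 without KO mouse 1 the log2 fold change was 0.0776 (SE 0.043), against 0.1062 (SE 0.043) with all libraries. The scaling bears on these counts, since 10 of 10 had values above 0 without KO mouse 3 under upper-quartile scaling, where the median of all genes was 0.02 and 58.2% of them were above 0.

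The mean over the 10 genes of log2 CPM relative to the WT mean gives a value for each mouse. It was 0.05, 0.08, -0.13, 0.04 and 0.02 in KO mice 1 to 5, against -0.05, 0.07, -0.03, -0.05 and 0.05 in WT mice 1 to 5. KO mouse 3 lay below all WT mice, KO mouse 2 just above them, and the other KO mice within the WT range. The group values were 0.01 ± 0.082 in KO and 0 ± 0.058 in WT (SD, n = 5 each). The KO mean was 0.05 ± 0.024 (n = 4) with KO mouse 3 left out. The summed level of the 10 genes ran from 6170 CPM, in mouse 3, to 7515 CPM in KO and from 6538 to 7384 CPM in WT.

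**Figure D3:**
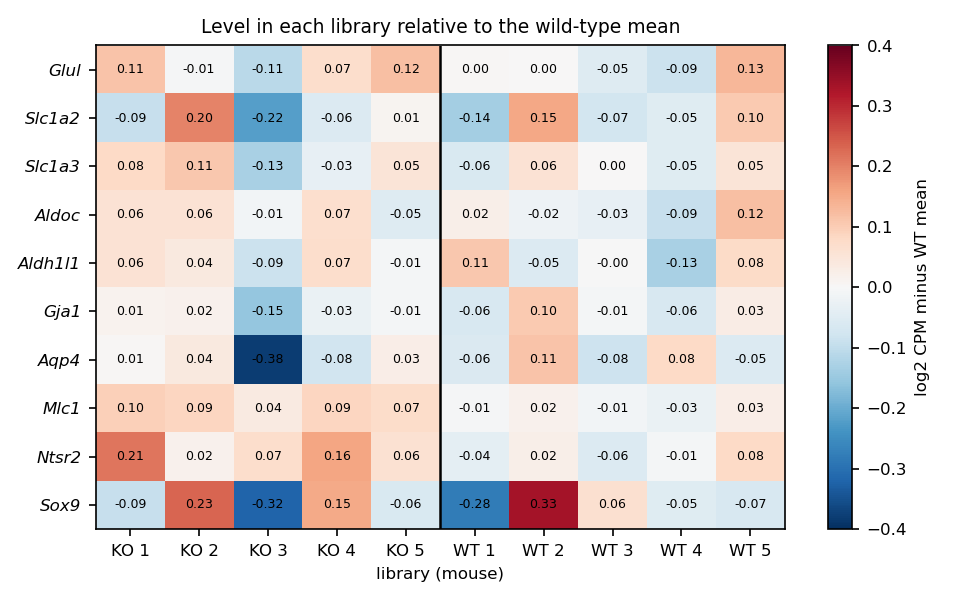
Log2 CPM of each astrocyte gene minus its WT mean, with libraries in columns (5 KO left of the line, 5 WT right) and genes in rows. The column of KO mouse 3 is lowest for Aqp4, at -0.38, and Sox9, at -0.32, while Mlc1 and Ntsr2 are above 0 in it.

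Marker genes of other cells were read in the same libraries. Among 9 marker lists of other cell types, KO mouse 3 had the lowest list mean of the 5 KO mice in 6, and of all 10 mice in 3. WT mouse 1 had the lowest of all 10 mice for granule neuron (-0.188), oligodendrocyte (-0.197), endothelial and mural (-0.187) and stem cell (-0.121) markers. Low list means were thus not particular to KO mouse 3. The list mean is again log2 CPM relative to the WT mean. For microglia markers it was -0.11 in KO mouse 3, 0.01 to 0.05 in the other KO mice and -0.08 to 0.07 in WT, and the summed level ran from 387.0 to 445.9 CPM in KO and from 399.5 to 445.1 CPM in WT. For endothelial and mural markers it was -0.16 in KO mouse 3, -0.05 to 0.07 in the other KO mice and -0.19 to 0.11 in WT, with sums of 283.8 to 341.1 CPM in KO and 294.1 to 350.4 CPM in WT. Oligodendrocyte markers were at -0.14 in KO mouse 3, -0.11 to 0.18 in the other KO mice and -0.20 to 0.17 in WT (sums of 1509 to 1886 CPM in KO and 1518 to 1772 CPM in WT). Oligodendrocyte precursor markers were at -0.05, -0.03 to 0.08 and -0.14 to 0.05 in the same order (sums of 332.9 to 385.6 CPM in KO and 328.4 to 400.7 CPM in WT). Meningeal fibroblast markers were at -0.30, -0.26 to 0.23 and -0.30 to 0.32 (sums of 92.5 to 138.4 CPM in KO and 95.3 to 151.0 CPM in WT). For these lists KO mouse 3 was lowest among KO mice by a small margin. By the sum of meningeal markers, 97.4 CPM, it was not the lowest KO mouse. Choroid plexus and ependyma markers were at -0.47 in KO mouse 3, its lowest list mean. There 4 of 10 genes were tested and sums ran from 34.9 to 43.2 CPM in KO and from 34.9 to 41.2 CPM in WT. Kl, the largest part of the sum, was at 29.9 CPM in KO mouse 3, against a WT mean of 29.2 CPM. The low list mean thus rests on the other tested genes, which were at low levels, with Foxj1 at 2.81 CPM and Aqp1 at 0.487 CPM in KO mouse 3. In that list Tmem212 had 0 counts in every library, Folr1 at most 4 and Otx2 at most 8.

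By list mean, KO mouse 3 was not the lowest KO mouse for the neuronal and stem cell lists. Granule neuron markers were at 0.04 in KO mouse 3, -0.03 to 0.06 in the other KO mice and -0.19 to 0.08 in WT, with sums of 2490 to 2702 CPM in KO and 2256 to 2684 CPM in WT. Interneuron markers were at -0.10 in KO mouse 3, with the other KO mice at -0.23 to -0.05 and WT at -0.08 to 0.21 (sums of 713.4 to 774.7 CPM in KO and 758.2 to 867.3 CPM in WT), so each KO mouse but 1 and 2 was below the WT mice. Neural stem cell and radial glia markers were at 0.04 in KO mouse 3, -0.04 to 0.15 in the other KO mice and -0.12 to 0.11 in WT (sums of 490.9 to 550.4 CPM in KO and 510.4 to 557.1 CPM in WT). The sum for the stem cell list was lowest of all 10 mice in KO mouse 3, at 490.9 CPM, unlike its list mean. The part of these other cells in the astrocyte values was not tested.

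**Figure D4:**
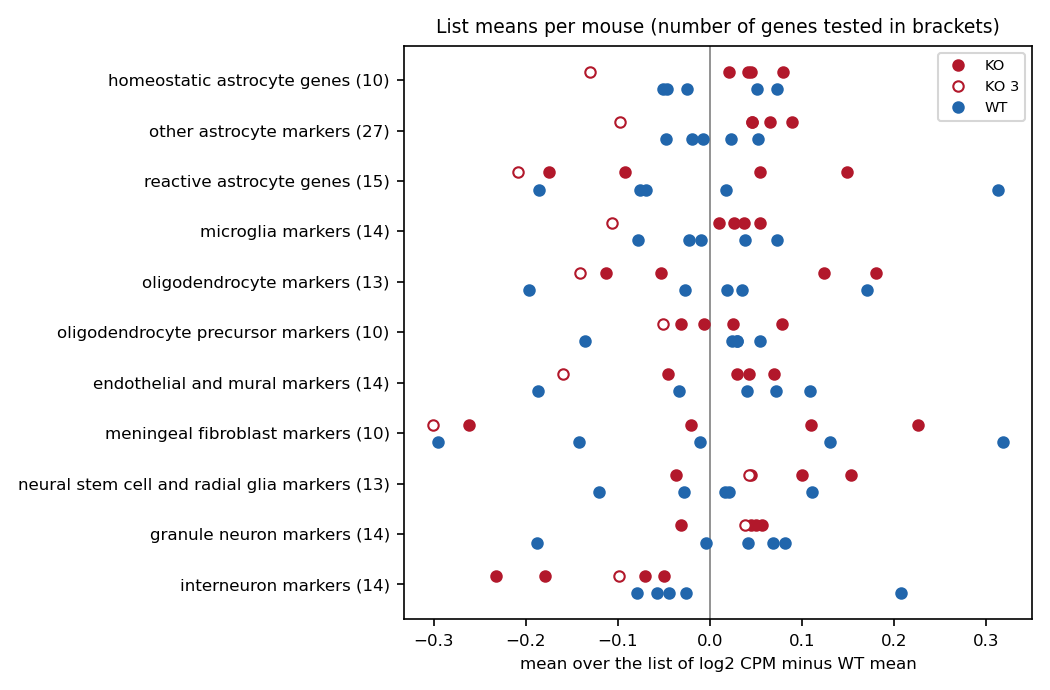
Mean over each gene list of log2 CPM minus the WT mean, with 1 point for each mouse (KO above WT in each row, open point KO mouse 3). By this mean, KO mouse 3 is the lowest KO mouse for the astrocyte, microglia, oligodendrocyte, endothelial and meningeal lists. The margin is small for the oligodendrocyte and meningeal lists. It is not the lowest KO mouse for the granule neuron, interneuron or stem cell lists.

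By genotype, none of the other cell lists had a called member. With all libraries, values above 0 were found for 9 of 14 microglia markers (median 0.0233), 7 of 13 oligodendrocyte markers (0.0232), 7 of 10 oligodendrocyte precursor markers (0.0176) and 6 of 14 endothelial and mural markers (-0.0031). Leaving out KO mouse 3 gave 12 of 14 microglia markers (0.0578), 8 of 13 oligodendrocyte markers (0.0551), 7 of 10 precursor markers (0.0241) and 8 of 14 endothelial and mural markers (0.027). For endothelial and mural markers the sign of the median thus turned with that library. With all libraries, values above 0 were also found for 8 of 14 granule neuron markers (0.0259), 2 of 14 interneuron markers (-0.1037), 2 of 4 choroid plexus and ependyma markers (-0.0033) and 2 of 10 meningeal fibroblast markers (-0.0871). With that library left out the counts were 7 of 14 (0.0106), 1 of 14 (-0.1168), 3 of 4 (0.1108) and 4 of 10 (-0.0382) in the same order, so the choroid plexus and ependyma median turned as well. For all genes the share was 50.7%, and 50.8% without KO mouse 3.

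A wider set of 27 other astrocyte markers had values above 0 for 19 with all libraries (median 0.02) and for 22 without KO mouse 3 (median 0.05), and none passed. Its list mean was -0.10 in KO mouse 3, 0.05 to 0.09 in the other KO mice and -0.05 to 0.05 in WT. Apoe, the main lipid carrier secreted by astrocytes, was at 1041, 1016, 962.1, 1037 and 979.7 CPM in KO mice 1 to 5, against 942.0, 966.6, 892.3, 920.3 and 975.7 CPM in WT mice 1 to 5. KO mouse 3 was the KO mouse inside the WT range, and the log2 fold change was 0.10 (SE 0.035, edgeR adjusted p 0.788). Clu, the secreted chaperone clusterin, was at 687.6 CPM in KO and 650.2 CPM in WT (0.08, SE 0.040), and the zinc transporter gene Slc39a12 was at -0.12 (SE 0.061, and -0.07 without KO mouse 3). Gfap, the intermediate filament of astrocytes and stem cells, was at 318.4 CPM in KO and 326.5 CPM in WT (-0.04, SE 0.047, and -0.01 without KO mouse 3).

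Levels were compared between genes per kilobase of annotated exon, as CPM divided by exon length. In order, the means were 447.9 ± 29.1 in KO and 436.0 ± 25.7 in WT for Glul, 264.6 ± 28.7 in KO and 269.9 ± 23.4 in WT for Slc1a2, and 180.7 ± 6.60 in KO and 177.8 ± 9.86 in WT for Aldoc. Slc1a3 followed at 82.7 ± 5.41 in KO and 81.7 ± 3.08 in WT, then Mlc1 at 44.9 ± 0.729 in KO and 42.6 ± 0.658 in WT. Ntsr2 (28.4 ± 1.59 in KO, 26.4 ± 0.991 in WT), Aqp4 (22.1 ± 2.497 in KO, 23.2 ± 1.47 in WT) and Gja1 (20.0 ± 0.957 in KO, 20.4 ± 1.01 in WT) lay close together. In WT, Aqp4 (21.9 to 25.1) and Gja1 (19.6 to 21.9) met at the edge of their ranges. Sox9 (10.2 ± 1.52 in KO, 10.3 ± 1.64 in WT) and Aldh1l1 (8.89 ± 0.389 in KO, 8.81 ± 0.586 in WT) were lowest, and their ranges overlapped. The order was the same in KO and WT. Exon lengths are the union over all annotated transcripts, which lowers the value of a gene such as Slc1a2, whose union of 13133 bases holds exons that its transcripts need not share.

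Some members share annotated exon sequence with another gene. An antisense transcript, Gm13872, overlaps 189 exon bases of Slc1a2, and Teddm2 on the other strand overlaps 116 exon bases of Glul. Gm13872 had at most 7 counts and Teddm2 at most 19 in a library. For Aldh1l1, 499 exon bases lie across from the antisense gene Gm15756 and 105 are shared with Gm45901, which were not analysed here. The sources used here do not give the strand setting of the counting, so reads of such pairs could not be told apart.

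The 10 genes did not all vary together between mice. Over 45 pairs, the median Pearson r of log2 CPM across 10 libraries was 0.342, with a range of -0.128 to 0.85, and 39 pairs were above 0. The median was 0.554 with the genotype means removed, and 0.338 without KO mouse 3, when 34 pairs were above 0. The closest pair was Slc1a3 and Gja1, with r = 0.85 and Spearman rho = 0.854 (permutation p 0.00153 and 0.00289, adjusted over the 45 pairs 0.0525 and 0.13). Without KO mouse 3, r was 0.729, and the closest pair was then Aldh1l1 and Aldoc (0.819). For Slc1a3 and Gja1, r was 0.647 without KO mouse 3 and WT mouse 1, the libraries farthest from the median of Slc1a3. With the genotype means removed, r was 0.911 for Slc1a3 and Gja1, the pair that passed (permutation p within genotypes 0.00011, adjusted p 0.00495). No pair passed with all 10 libraries or without KO mouse 3, while 12 pairs had an unadjusted permutation p under 0.05. All libraries share their scaling, which enters every pair. Pairs of other genes were not computed, so whether these values are high for these libraries was not tested.

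Slc1a2, Slc1a3, Gja1, Aqp4 and Sox9 had pairwise r of 0.627 to 0.85, and without KO mouse 3 the values with Aqp4 were 0.347 to 0.506. For Aqp4 and Gja1, r was 0.761 (rho 0.53, permutation p 0.0193 and 0.118, adjusted p 0.0989 and 0.343), 0.414 without KO mouse 3, and -0.0852 without KO mouse 3 and WT mouse 2, the libraries farthest from the median of Aqp4. Aldh1l1 and Aldoc had r = 0.788 (rho 0.766, permutation p 0.00737 and 0.0131, adjusted p 0.0525 and 0.135), 0.819 without KO mouse 3, and 0.711 without KO mouse 3 and WT mouse 4. Ntsr2 and Mlc1, the genes with the highest log2 fold changes, had r = 0.772 (rho 0.766, permutation p 0.00763 and 0.0128, adjusted p 0.0525 and 0.135). That value was 0.601 without KO mice 1 and 4, and 0.554 with the genotype means removed. Median r with the other 9 genes ran from 0.207 for Sox9 to 0.611 for Slc1a3, and that of Aqp4 was 0.342 with all libraries and -0.047 without KO mouse 3.

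**Figure D5:**
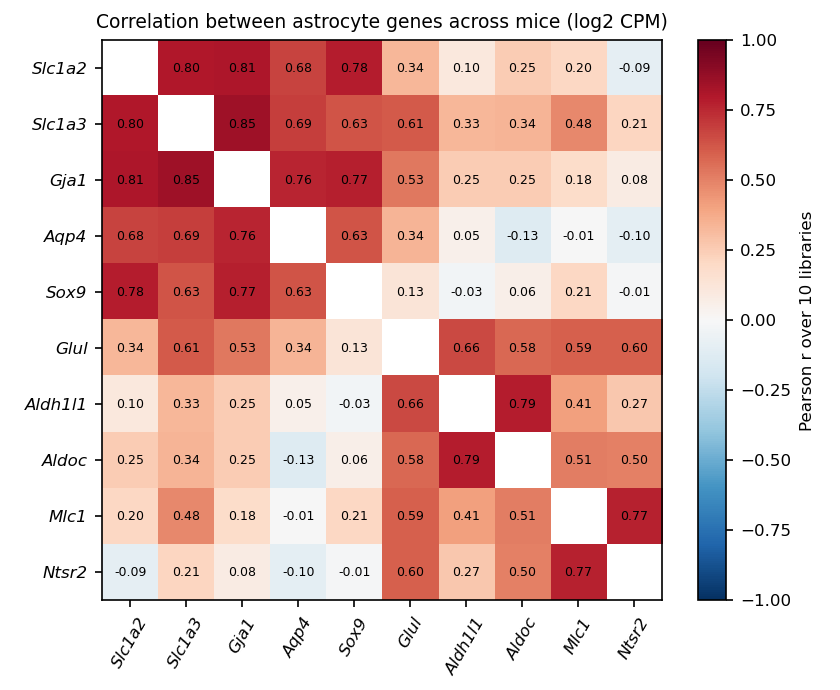
Pearson r of log2 CPM over the 10 libraries (5 KO, 5 WT) for each pair of astrocyte genes. Slc1a2, Slc1a3, Gja1, Aqp4 and Sox9 form a block of higher values (0.627 to 0.85), and Aqp4 is near 0 with Aldh1l1, Mlc1 and Ntsr2. Without KO mouse 3, r of Aqp4 is -0.722 with Aldh1l1, -0.0466 with Mlc1 and -0.0784 with Ntsr2. With the genotype means removed, r of Aqp4 is 0.0808 with Aldh1l1, 0.553 with Mlc1 and 0.127 with Ntsr2.

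Slc1a3 and Gja1 varied together most with all 10 libraries, though not without KO mouse 3 (r = 0.729, against 0.819 for Aldh1l1 and Aldoc). The sequences before the start sites of Slc1a3 and Gja1 are shown for that reason. Each is the 250 bases before a RefSeq start on GRCm38.p6, read on the gene's own strand, at chr15:8710808-8711057 (minus strand) for Slc1a3 and chr10:56377050-56377299 (plus strand) for Gja1. Capitals mark matches on either strand to any of 3 motifs: the SOX core ACAAT, the nuclear factor I half-site TTGGC, and the STAT motif TTCNNNGAA.
Slc1a3: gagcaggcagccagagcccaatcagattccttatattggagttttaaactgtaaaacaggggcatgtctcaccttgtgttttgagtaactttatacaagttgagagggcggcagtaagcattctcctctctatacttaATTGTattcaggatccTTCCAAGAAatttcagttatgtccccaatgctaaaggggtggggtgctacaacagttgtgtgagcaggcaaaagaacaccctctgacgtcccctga
Gja1: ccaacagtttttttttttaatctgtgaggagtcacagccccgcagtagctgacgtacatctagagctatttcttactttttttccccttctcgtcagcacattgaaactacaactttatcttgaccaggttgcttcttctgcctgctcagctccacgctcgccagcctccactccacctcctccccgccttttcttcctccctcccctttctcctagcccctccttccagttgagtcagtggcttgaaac

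Windows of this kind were read for 8 of the 10 genes, 9 in all since Aldoc had 2. Aqp4 was left out of the search and no window was available for Sox9, so both are named only. The counts of motif matches do not cover them. The nuclear factor I half-site was in 5 of the 9 windows, among them those of Ntsr2 and Mlc1, and in 41.5% of 32851 windows of all genes. The STAT motif was in 3 of 9, among them Ntsr2 and Slc1a3, and in 7.02% of all windows. The SOX core was in 2 of 9, Slc1a3 and the upstream window of Aldoc, and in 27.7% of all windows. The Gja1 window held none of the 3, so the pair had no motif in common. Matches to different motifs were counted separately and may share bases. A match describes the letters in the window only.

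Over the same 10 libraries, other genes were ranked by the Pearson r of their log2 CPM with the mean of the 10 standardized astrocyte genes. Among the highest were Usp50 (r = 0.958), Parp4 (0.956), Mapkbp1 (0.923) and Fn3k (0.923). Across all other genes the median r was -0.004, and 9 genes were above 0.9. Without KO mouse 3, r was 0.983 for Usp50, 0.932 for Parp4, 0.921 for Mapkbp1 and 0.868 for Fn3k. Mapkbp1 was at 123.7 CPM in KO and 122.9 CPM in WT (log2 fold change 0.01, SE 0.033, edgeR adjusted p 0.974), and none of these genes passed.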

How the data were processed

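RNA of 10 libraries, 1 for each mouse, was measured as raw read counts per gene symbol, deposited by the authors without normalization. Per the labels' protocols, a stranded mRNA kit was used on 500 ng of total RNA, with single-end reads of 75 bases. STAR 2.5.1b, Cufflinks 2.2.1 and mm10 are named, without roles, per the submitters' processing notes.

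Groups were taken from the title of each sample. No library was a repeat of another: the closest pair of a genotype had a chi-square of 4.47 per degree of freedom. Genes were filtered with filterByExpr, scaled by TMM and fitted with edgeR 4.0.16 (estimateDisp, glmQLFit, glmQLFTest) in R 4.3.3, with Benjamini-Hochberg adjustment over all 14867 genes and a threshold of 0.05. Standard errors and 95% intervals were derived from each gene's fold change and F statistic. Log2 CPM used a prior count of 2, and correlations 100000 permutations. Positions and exon lengths are from GENCODE M21 (GRCm38).

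Tested on simulated data for KO against WT (14793 genes), the fit found 59.7% of 67 genes set to 1.25-fold changes and 88.1% of 67 set to 1.5-fold. It also called 5 genes that had been left unchanged. Many genes changed at once there, which eases the adjusted threshold.

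The members, lists and tests were chosen with earlier results of these data known. Named genes are the 10 members, Fndc5, up to 3 genes of each astrocyte-related list with the smallest p, direct partners chosen by role and the 5 most alike genes; some of these are not reported here. Lists of other cell types are given as counts and means. Gfap, Hes5, Sox2 and Sox10 stand in more than 1 list. Alternatives were DESeq2 1.42.0, upper-quartile scaling, other filters, limma-voom 3.58.1 with and without quality weights, a replicate block, a spline correction for GC content and length, and each library left out. 4 combinations with KO mouse 3 left out were added after seeing the data.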

Additional observations from a re-analysis of the deposited data

Results flagged for a closer look

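Of 22 groups of 5 libraries checked for a value far from the rest, 2 were found, against about 1.1 by chance, and both were in KO mouse 3. The mean of the 10 astrocyte genes there was -0.1304 on the log2 scale relative to the WT mean, and the other KO mice were at 0.0209 to 0.0793. Gja1 was at 188.1 CPM there, and the other KO mice were at 205.4 to 211.9 CPM. Gja1 is part of that mean and the groups share libraries, so the 2 are not separate findings. The number by chance takes no account of this. The library's lower values for microglial, endothelial and oligodendrocyte markers are given with the list means, and their part was not tested.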

How the results depend on the processing

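No astrocyte gene passed in any of 220 values (10 genes under 22 alternatives), where the lowest adjusted p was 0.411. Of these, 198 kept the sign of the fit with all libraries. The other 22 values had the other sign, Aqp4, the gene with the lowest value, among them. With GC and length correction Aldh1l1 was at -0.011 and Gja1 at 0.0148. With single libraries left out, Aldh1l1 ran from -0.0179 to 0.0404, Slc1a2 from -0.0902 to 0.0163, Slc1a3 from -0.0063 to 0.0518 and Sox9 from -0.0865 to 0.0697. With KO mouse 3 out, upper-quartile scaling put Aqp4 at 0.011, Slc1a2 at 0.0292, Gja1 at 0.0108 and Sox9 at 0.065, and GC and length correction put Aqp4 at 0.037, Slc1a2 at 0.0324, Gja1 at 0.0331 and Sox9 at 0.0454. DESeq2 without that mouse put Slc1a2 at 0.0163 and Sox9 at 0.0505, and the replicate block without it put Sox9 at 0.0719. These 4 settings that combine KO mouse 3 left out with another change were chosen after seeing the data. Genes with values above 0 numbered 6 of 10 with all libraries, 5 to 8 with single libraries left out, and 10 without KO mouse 3 under upper-quartile scaling or under GC and length correction. The median of the 10 ran from -0.0084 (without WT mouse 4) to 0.0445 (without KO mouse 3) with single libraries left out. The count of called genes was 1, against 3 with DESeq2, 1 to 3 with single libraries left out (2 without KO mouse 2 and 3 without WT mouse 1), 2 with DESeq2 without KO mouse 3, and 8 with the replicate block and 3 with the block without KO mouse 3. The cause was not tested. The pair count was 0, and 1 with deviations from genotype means. Same-numbered mice correlated at 0.209, 0.204, 0.108, 0.00901 and 0.0282, low values that do not establish a pairing by number. Yet 6 of 10 libraries correlated best with their own number, out of 5 of the other genotype. Whether the numbers pair the mice was not settled. With the block the median of the 10 was 0.01 and 6 had values above 0. The SE was smaller with the block for Slc1a2 (0.029, against 0.067) and Sox9 (0.067, against 0.10), and about the same for Mlc1 (0.031 in both). The number of mice limits precision, and without the block Sox9 had the widest interval.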

Other observations

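Genes that astrocytes raise when reactive showed no common direction. Of 15 tested, 8 had values above 0 with all libraries (median 0.0035, against a mean of -0.11 on the log2 scale) and also 8 without KO mouse 3 (median 0.0255), and none passed. The mean leans on Lcn2, a secreted lipocalin, which averaged 0.545 CPM in KO and 1.249 CPM in WT, where mouse 5 was at 4.64 CPM and the others at 0.912 CPM or less (log2 fold change -1.11, SE 0.80, edgeR adjusted p 0.829). Emp1 was at -0.52 (SE 0.27) and Serpina3n, a protease inhibitor, at 54.9 CPM in KO and 59.5 CPM in WT (-0.11, SE 0.083). The list mean was -0.21 in KO mouse 3, -0.18 to 0.15 in the other KO mice and -0.19 to 0.31 in WT. Steap4, Timp1 and C3 had at most 9, 5 and 17 counts in a library and were not tested.

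Neural stem cell and radial glia markers had values above 0 for 7 of 13 tested (median 0.0136, against a mean of 0.06) and for 8 without KO mouse 3 (median 0.0316), and none passed. Tfap2c was at 0.916 CPM in KO and 0.703 CPM in WT (0.37, SE 0.22, and 0.27 without KO mouse 3), and Riiad1 was at 0.28 (SE 0.16, and 0.17 without KO mouse 3).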
